A study of Homo sapiens with 9 samples.

Results

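What still separated TLX-overexpressing breast cancer cells from control cells after TLX had been targeted with an siRNA was read from 6 of the 9 RNA sequencing libraries of the study, 3 in each group, over all 27548 rows of the expression table, each an Ensembl gene. The cells were MDA-MB-231, an established human line of triple-negative breast cancer, a tumour class without the estrogen, progesterone and HER2 receptors. Libraries S1 to S3 came from control cells under a control siRNA (CTL+siCTL) and were set against S7 to S9 from the TLX-overexpressing line under a TLX-targeting siRNA (TLX+siTLX), both 48 h into transfection. In S4 to S6 that line had received the control siRNA (TLX+siCTL). The 6 libraries were taken by the group names in the table's columns. The sources used here do not give how TLX was overexpressed, whether either line is 1 clone, or the siRNA sequences. PC3, which a prostate line is also called, appears unexplained in the control samples' titles. No group of control cells with the TLX siRNA was analysed here, so line, remaining TLX and the siRNA itself cannot be told apart as sources of a difference between these groups.

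TLX, encoded by NR2E1, is an orphan nuclear receptor that binds DNA and mostly represses its targets together with histone deacetylases and the demethylase KDM1A. It is best known for keeping neural stem cells proliferating. In a growing cell line, genes of DNA replication are driven by E2F factors before S phase, and genes of mitosis later by the B-MYB and FOXM1 complexes, many of them through a short promoter element called the cell cycle homology region.

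NR2E1 (ENSG00000112333, GRCh38 chromosome 6, 108166058 to 108188809) was above the control cells in TLX+siTLX, at a very low level. In log2 CPM (log2 of counts scaled to library size) it was at -4.59, -4.28 and -4.50 in CTL+siCTL and -2.61, -3.40 and -1.77 in TLX+siTLX, where -5.33 stands for no read. In TLX+siCTL it was 0.28, -0.84 and 0.23. All TLX+siTLX libraries lay above all control libraries and below all TLX+siCTL libraries, and S9 was the highest of its group. The fold change over control cells was 1.86 ± 0.47 (log2, SE, n = 3 against 3, limma adjusted p = 0.0134). Rebuilt reads gave 40.0 in TLX+siTLX against 4.80 in CTL+siCTL in all, a ratio of 7.86 (exact 95% binomial interval 2.97 to 24.5, counting error only). Without S9 it was 5.06 (1.76 to 17.2). Leaving out S1 ended the call (1.80, adjusted p = 0.0549), as did a pseudocount of 1 CPM (0.18, adjusted p = 0.387).

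**Figure D1:**
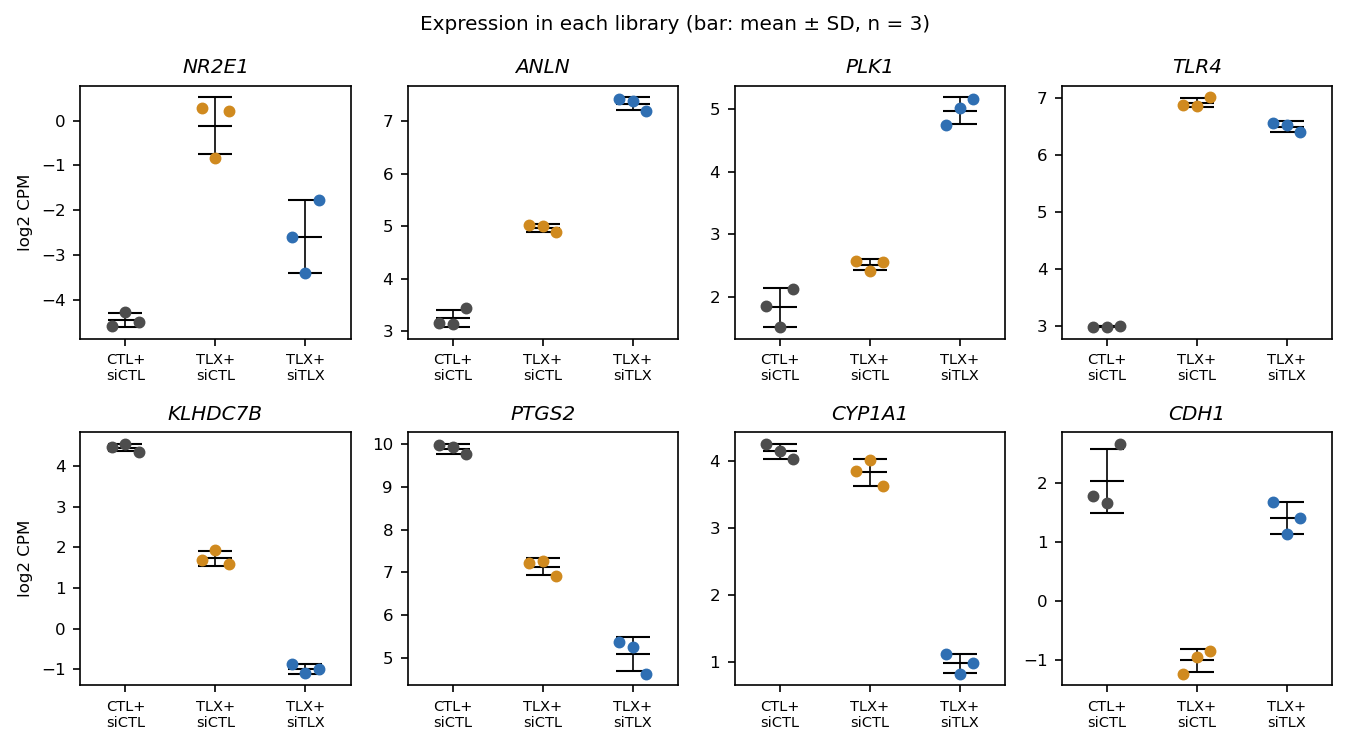
Deposited log2 CPM of 8 genes in each library, with the group mean and SD (n = 3). In TLX+siTLX, NR2E1 lies between the other groups, ANLN, PLK1 and TLR4 lie above control cells, KLHDC7B, PTGS2 and CYP1A1 lie below them, and CDH1 overlaps the control range.

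The compared libraries held 73.8 to 86.9 M effective reads. Between libraries of a group the chi-square per gene was 9.60 to 14.4 among the controls and 25.2 to 58.7 among TLX+siTLX, the largest for S7 with S9, where counting noise alone would give about 1. S9 was the furthest of its group, with a library weight of 0.49. Whether the replicates are separate cultures is not in the labels, and the p-values refer to the spread between these libraries, possibly a technical one. Of 10 markers of MDA-MB-231 and mesenchymal breast cells, all 10 were measured, and their summed level was 5080 to 5219 CPM in CTL+siCTL and 7541 to 7886 CPM in TLX+siTLX. Of 11 prostate markers 5 were measured, with a summed level of 49.0 to 51.2 CPM and 51.2 to 55.5 CPM. KLK3, which encodes prostate-specific antigen, was at or near the floor in all libraries. Neither marker list was set against a reference library of the prostate line PC-3, so these levels do not tell which line the control cells are. CTNNA1, which the prostate line PC-3 has lost, was expressed in each control library at 9.50 to 9.56 log2 CPM.

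Most expressed genes still differed. Of the 27548 rows, 9544 passed limma's test at an adjusted p of 0.05 (34.6%), 4869 higher in TLX+siTLX (17.7%) and 4675 lower (17.0%). At least 2-fold differences were called for 1277 rows higher (4.64%) and 1088 lower (3.95%), counts that came to 665 and 505 on the log2(CPM + 1) scale. In the 6 libraries 12625 rows had a mean of 1 log2 CPM or more and are called expressed rows here. Of these 63.5% were called, 32.3% higher and 31.3% lower, with a median log2 fold change of 0.00. These shares are the background for the gene lists. List members were counted from a mean of -3 log2 CPM upward, so some lie below the level of expressed rows. At 2-fold or more the shares of the 12625 expressed rows were 5.66% higher and 4.36% lower. The 3 TLX+siTLX libraries all lay above the 3 controls in 35.8% of expressed rows and all below in 35.2%. Such separation was also a condition for naming most genes below, so for them it is no separate result. For 2139 expressed rows (16.9%) the 95% interval of the difference lay wholly within 1.2-fold of the control cells. The authors' deposited table has 9429 genes under a false discovery rate of 0.05, and 9241 were called in both, all with the same sign.

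Genes with the largest rises were a mix of cell cycle genes and genes of other kinds. CCDC190, a coiled-coil protein gene, stood at -0.12, -0.09 and 0.13 log2 CPM in CTL+siCTL and at 4.51, 4.36 and 4.36 in TLX+siTLX (log2 fold change 4.44 ± 0.10, limma adjusted p = 3.11e-08). GDF5, a secreted bone morphogenetic protein family ligand, went from -0.58, -0.51 and -0.58 to 3.69, 3.74 and 3.86 (4.32 ± 0.10, adjusted p = 3.18e-08). NGFR, the low-affinity neurotrophin receptor, went from 0.22, -0.24 and 0.36 to 4.23, 4.32 and 4.50 (4.24 ± 0.15, adjusted p = 2.28e-07). None of these groups overlapped, and the 3 genes went from 0.678 to 1.08 CPM in control cells to 13.6 to 21.3 CPM. TLR4, the endotoxin receptor, was at 2.99, 2.99 and 3.01 in control cells and at 6.57, 6.53 and 6.40 in TLX+siTLX, an 11.3-fold difference (3.50 ± 0.06, adjusted p = 1.66e-08). Its TLX+siCTL mean was higher still, and TLX+siTLX against TLX+siCTL gave -0.42 ± 0.06 (adjusted p = 0.000761). The remaining 8 of the 12 largest rises were ANLN, MCM10, ZNF367, KIF18B, DLGAP5, KIF4A, TOP2A and the carboxypeptidase CPA4 (3.39 to 4.09).

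The largest falls held prostaglandin, growth factor and transporter genes. KLHDC7B, a kelch-domain protein gene (chromosome 22, 50545891 to 50551023), was at 4.46, 4.53 and 4.35 log2 CPM in control cells and at -0.87, -1.10 and -0.99 in TLX+siTLX, 43.2-fold lower (-5.43 ± 0.12, limma adjusted p = 3.11e-08). PTGS2, the inducible cyclooxygenase of prostaglandin synthesis (chromosome 1, 186671791 to 186680427), was at 9.99, 9.93 and 9.77 against 5.38, 5.26 and 4.63, from 954 to 34.0 CPM (-4.81 ± 0.18, adjusted p = 3.01e-07). The groups were far apart for both genes, S9 was the lowest for PTGS2, and the TLX+siCTL libraries lay between. EREG, which encodes the EGFR ligand epiregulin, was at 10.14, 10.15 and 10.03 against 6.85, 6.83 and 6.46, and with a fall by 3.39 ± 0.14 it was also among the 6 abundant genes with the largest differences. CYP1A1, a cytochrome P450 induced by the aryl hydrocarbon receptor, was at 4.25, 4.15 and 4.03 against 1.12, 0.83 and 0.99 (-3.16 ± 0.12, adjusted p = 2.68e-07). Unlike PTGS2 and KLHDC7B it had no call between TLX+siCTL and CTL+siCTL (-0.31 ± 0.12, adjusted p = 0.0836), whereas TLX+siTLX against TLX+siCTL gave -2.85 ± 0.12 (adjusted p = 3.34e-06). VNN3, the urea transporter SLC14A1, RND1, the organic anion transporter SLCO4C1, SIPA1L2, TRIML2, TMEM45B and the immediate early factor EGR1 made up the other falls (-4.98 to -3.20).

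**Figure D2:**
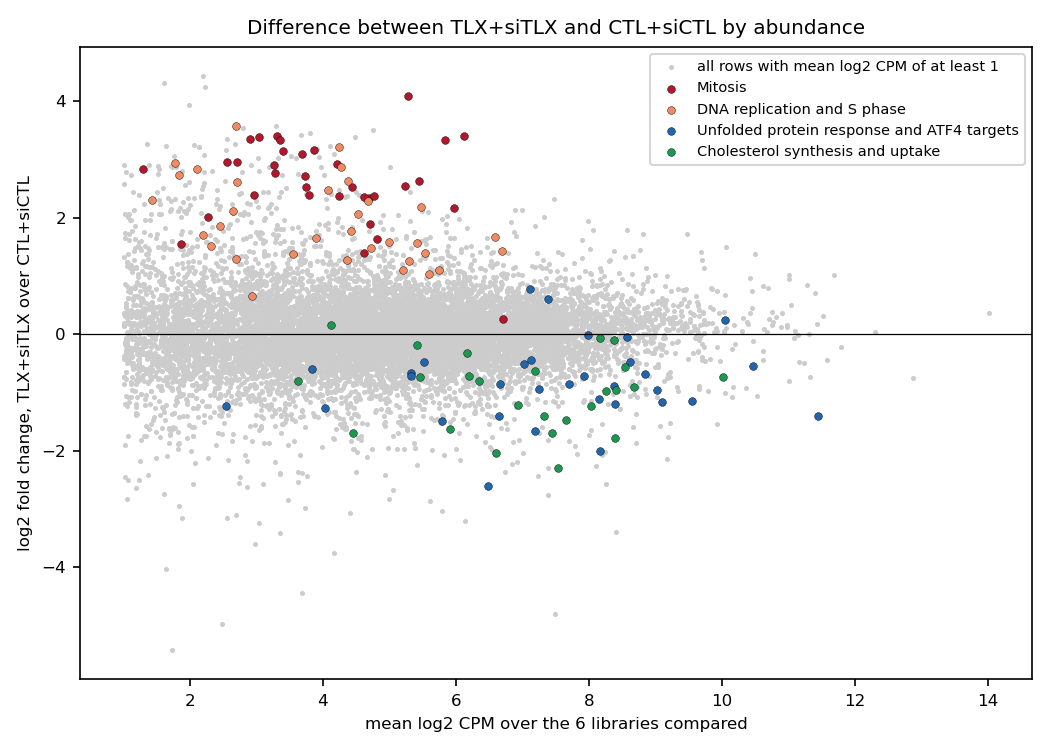
Log2 fold change of TLX+siTLX over CTL+siCTL against the mean log2 CPM of the 6 libraries, for the 12625 expressed rows (grey) and the members of 4 gene lists at that level. Mitosis and S phase members all lie above 0, while most unfolded protein response and cholesterol members lie below it.

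Mitosis genes were higher without exception in the list, whose members were chosen with earlier results of these data known. All 35 measured members were called higher, against 32.3% of expressed rows, with a median log2 fold change of 2.71, and 34 of them were at least 2-fold higher. Their summed level was 353 to 406 CPM in control libraries and 1925 to 1970 CPM in TLX+siTLX. The smallest difference was that of ECT2 (0.27), a regulator of cytokinesis. ANLN, the scaffold protein anillin of the cytokinetic ring, was at 3.16, 3.13 and 3.43 log2 CPM in CTL+siCTL and at 7.42, 7.38 and 7.19 in TLX+siTLX, 17.1-fold higher (4.09 ± 0.09, adjusted p = 3.11e-08 by limma). PLK1, a kinase of mitotic entry and spindle assembly, was at 1.85, 1.52 and 2.13 against 4.75, 5.02 and 5.16, 8.86-fold higher. Every TLX+siTLX library exceeded every control library for both genes. TOP2A, the topoisomerase that untangles chromosomes, went from 21.5 to 228 CPM (3.41 ± 0.09), and CDK1, the kinase that triggers mitosis, from 4.42 to 37.7 CPM (3.09 ± 0.11). KIF4A, a chromosome-bound kinesin, was higher by 3.41 ± 0.06 and the cyclin CCNB1 by 1.64 ± 0.09.

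The listed genes of DNA replication and S phase, chosen in the same way, were also higher without exception. All 34 measured were called higher, 33 at least 2-fold, with a median of 1.74 and a range of 0.65 for the cyclin CCNE1 to 3.58 for MCM10. MCM10, a factor that activates the replicative helicase, was at 0.87, 0.55 and 1.27 log2 CPM in control cells and at 4.55, 4.56 and 4.33 in TLX+siTLX. RRM2, the small subunit of ribonucleotide reductase, was at 2.42, 2.66 and 2.80 against 5.90, 5.87 and 5.78 (3.22 ± 0.11, limma adjusted p = 2.05e-07). Neither gene overlapped between groups. PCNA, the sliding clamp of DNA polymerases, was higher by 1.39 ± 0.05 and the helicase subunit MCM2 by 1.58 ± 0.07. E2F2 and SPC25 of these lists share their symbol with a further row, and their values are uncertain.

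Of expressed rows 29.0% were called higher and 27.7% lower in TLX+siCTL over CTL+siCTL, and 24.1% and 21.8% in TLX+siTLX over TLX+siCTL. In these comparisons, which share libraries with the main one, the S phase list had a median of 1.09 in TLX+siCTL over CTL+siCTL (32 of 34 called higher) and 0.82 in TLX+siTLX over TLX+siCTL (31 of 34). For mitosis the medians were 1.09 (33 of 35 higher, 1 lower) and 1.61 (34 of 35 higher). ANLN was at a mean of 4.97 log2 CPM in TLX+siCTL, between its levels in the compared groups. PLK1 gave 0.68 ± 0.16 for TLX+siCTL over CTL+siCTL and 2.46 ± 0.16 for TLX+siTLX over TLX+siCTL (adjusted p = 0.00962 and 1.61e-05, limma).

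Promoters of the mitosis and S phase lists were searched for the elements named above. The search covered both strands of the 250 bases before the gene start of the RefSeq GRCh38.p14 promoter table. The element TTTGAA was present in 17 of the 29 mitosis genes with a promoter window (58.6%), against 16.1% of all 27305 genes of the table and 11.8% of the 9399 expressed genes with a window. With the variant TTTAAA it was present in 22 of 29 (75.9%, against 25.5% of all genes and 19% of expressed genes). E2F letters, TTTCCCGC or TTTGGCGC, were present in 13 of the 30 S phase genes with a window (43.3%). Their share was 2.36% of all genes and 4.11% of expressed genes. AAGTCA, the half-site bound by TLX, was present in 4 of 29 mitosis genes (13.8%) and 2 of 30 S phase genes (6.67%). It was present in 13.1% of all genes and 9.86% of expressed genes. A match describes letters and no binding was measured. These shares depend on which genes were listed and not on their levels in these cells. Whether the elements bear on the rises was not tested. The stretches below are from genes whose values are given here, running 5′ to 3′ toward the gene start, with the matched element in capitals (TTTGAA or TTTAAA).
PLK1, chr16:23678830-23678888, plus strand: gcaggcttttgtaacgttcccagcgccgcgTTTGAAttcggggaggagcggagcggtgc
CDK1, chr10:60778435-60778477, plus strand: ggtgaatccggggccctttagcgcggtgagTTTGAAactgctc
CCNB1, chr5:69167090-69167149, plus strand: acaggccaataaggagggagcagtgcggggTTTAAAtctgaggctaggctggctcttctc
ANLN, chr7:36389812-36389861, plus strand: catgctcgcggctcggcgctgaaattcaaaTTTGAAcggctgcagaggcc
KIF4A, chrX:70290040-70290103, plus strand: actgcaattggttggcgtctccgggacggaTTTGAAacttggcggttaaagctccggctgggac
The capitals mark the match nearest the start, which began 29, 13, 30, 20 and 34 bases before it, in the order shown. On both strands together the windows of PLK1, CDK1 and ANLN held 3, 2 and 2 matches (TTTGAA or TTTAAA for PLK1 and CDK1, TTTGAA for ANLN), and a match other than the nearest is left in lower case where it falls in the printed stretch. In the S phase gene PCNA and in ZNF367, a zinc-finger gene among the 12 largest rises (3.58 ± 0.08), the capitals mark the E2F letters, read on the other strand as GCGGGAAA.
PCNA, chr20:5126644-5126711, minus strand: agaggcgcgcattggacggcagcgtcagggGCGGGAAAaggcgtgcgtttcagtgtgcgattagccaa
ZNF367, chr9:96418371-96418421, minus strand: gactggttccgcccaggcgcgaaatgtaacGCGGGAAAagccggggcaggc

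Genes that brake the cell cycle did not move as a group. Of 16 measured, 5 were called higher and 6 lower (median -0.09), near the 32.3% and 31.3% of expressed rows. CDKN1A, which encodes the inhibitor p21, was at 8.52, 8.65 and 8.39 log2 CPM in control cells and at 7.54, 7.56 and 7.50 in TLX+siTLX (-0.99 ± 0.06, limma adjusted p = 4.7e-06). CDKN1B, which encodes p27, fell by 0.58 ± 0.07 and the antiproliferative BTG1 by 0.97 ± 0.06, while the RB relative RBL1 rose by 1.93 ± 0.12 and CDKN2C by 0.89 ± 0.08. The groups did not overlap for these 5 genes. CDKN2A and CDKN2B were not analysed here.

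**Figure D3:**
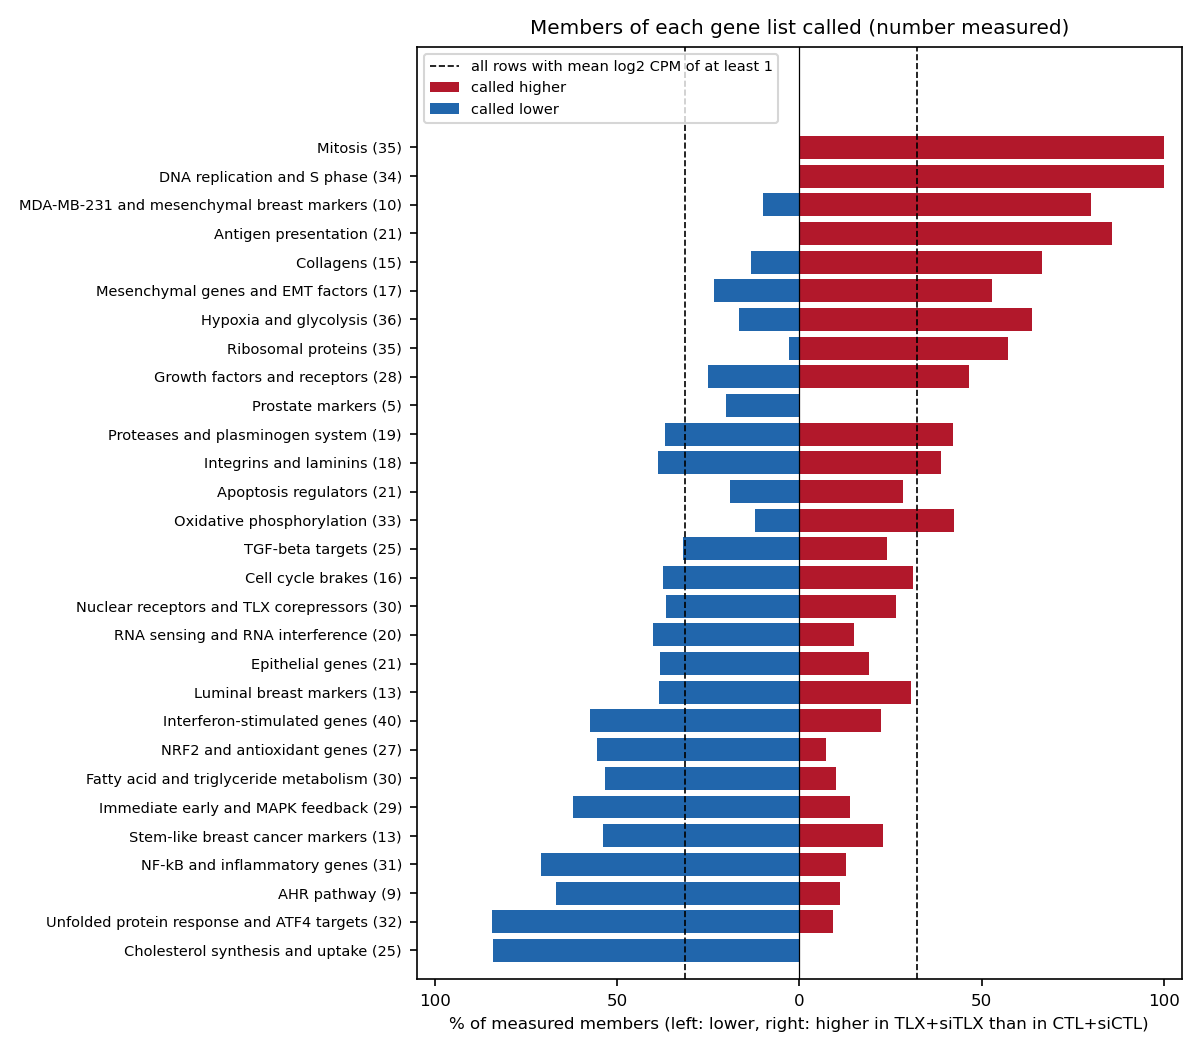
Share of the measured members of each list called higher (right) or lower (left) in TLX+siTLX than in CTL+siCTL, ordered by median log2 fold change, with the number measured in brackets. Dashed lines mark 32.3% and 31.3%, the shares over expressed rows. Mitosis and S phase reach 100% higher, and cholesterol and unfolded protein response genes have the largest shares lower.

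Antigen presentation genes were mostly higher. Of 21 measured, 18 were called higher and 0 lower, against 32.3% and 31.3% of expressed rows, with a median of 0.82. The 3 TLX+siTLX libraries were all above the controls in 20 (35.8% of expressed rows). CIITA, the master activator of MHC class II genes, was at 1.83, 2.07 and 1.97 log2 CPM against 3.66, 4.13 and 3.84 (1.92 ± 0.23, limma adjusted p = 0.000206). CD74, the class II invariant chain, was at 6.82, 6.84 and 6.71 against 7.78, 7.99 and 7.97 (1.13 ± 0.06, adjusted p = 1.77e-06), and its TLX+siCTL mean of 6.56 lay under the control cells. Both genes were apart between the compared groups. NLRC5, the activator of class I genes, was higher by 0.96 ± 0.12. Most HLA, TAP and immunoproteasome symbols are on several rows of the table, so their values are uncertain.

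Hypoxia and glycolysis genes were called higher in 23 of 36 cases and lower in 6 (median 0.44), against 32.3% and 31.3% of expressed rows. The HIF hydroxylase EGLN3 was at 1.83, 1.99 and 1.72 log2 CPM in control cells and at 3.73, 3.83 and 4.16 in TLX+siTLX (2.06 ± 0.14, limma adjusted p = 5.51e-06). NDRG1, a stress-response gene, was at 7.04, 7.12 and 7.14 against 8.62, 8.68 and 8.83 (1.61 ± 0.06), and the mitophagy receptor BNIP3 was higher by 1.16 ± 0.06. These groups did not overlap. The carbonic anhydrase CA9 stood at -4.50, -4.83 and -1.24 against 0.56, 1.10 and 1.09, with control S3 well above the other controls (4.44 ± 0.83, adjusted p = 0.00262). VEGFA, the angiogenic factor, fell by 0.16 ± 0.03, and LOX, a collagen crosslinking enzyme, by 0.79 ± 0.04. In TLX+siCTL over CTL+siCTL the list had 12 higher and 14 lower (median -0.09), and in TLX+siTLX over TLX+siCTL 30 higher and 2 lower (median 0.46).

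Matrix and mesenchymal genes were higher in part. Of 15 collagens 10 were called higher and 2 lower (median 0.72), and of 17 mesenchymal genes 9 and 4 (median 0.62). The shares of expressed rows were 32.3% higher and 31.3% lower. COL5A1, a fibrillar collagen chain, was at 7.60, 7.63 and 7.68 log2 CPM against 8.64, 8.71 and 8.80 (1.08 ± 0.06, limma adjusted p = 2.16e-06), although its TLX+siCTL mean was 6.84. COL6A2 was higher by 1.28 ± 0.07 and COL8A1 by 1.14 ± 0.08, while COL16A1 fell by 1.71 ± 0.12. COL6A3, at -0.89 ± 0.26 (adjusted p = 0.0263), lost its call when any of S1, S2, S3, S4, S7 or S8 was left out (-0.91 to -0.74, adjusted p = 0.0597 to 0.117), which leaves 1 collagen lower. SNAI2, a transcriptional repressor of epithelial genes, was at 4.39, 4.45 and 4.44 against 6.59, 6.57 and 6.49 (2.12 ± 0.04, adjusted p = 2.28e-08). The calcium-binding S100A4 was 4.99-fold higher (2.32 ± 0.08), and the receptor kinase AXL was higher by 1.42 ± 0.04. ZEB1 and ZEB2, repressors with a role like that of SNAI2, fell by 0.52 ± 0.12 and 0.97 ± 0.06, and fibronectin, FN1, by 0.90 ± 0.06.

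VIM and CDH1 had no call. VIM, the mesenchymal filament vimentin, was at 10.65, 10.69 and 10.64 log2 CPM against 10.57, 10.69 and 10.82 (0.04 ± 0.06, limma adjusted p = 0.723), where TLX+siCTL over CTL+siCTL gave -0.64 ± 0.06. CDH1, the epithelial cadherin, was at 1.78, 1.65 and 2.65 against 1.68, 1.14 and 1.40 (-0.62 ± 0.27, adjusted p = 0.123), where TLX+siCTL gave -3.03 ± 0.27 (adjusted p = 4.7e-05). The compared groups overlapped for both genes. Of 21 epithelial genes, 17 of them expressed rows, 4 were called higher and 8 lower (median -0.22), against 32.3% and 31.3% of expressed rows. The counts were 2 higher without S1 or S2 and 5 lower without S1. KRT7, a keratin, rose by 0.39 ± 0.08 and EPCAM, an epithelial adhesion molecule, by 0.44 ± 0.06, while the factor ELF3 fell by 1.83 ± 0.06, the tight junction gene CLDN1 by 1.12 ± 0.06 and MAL2 by 0.94 ± 0.09. The call for KRT8 (0.17 ± 0.04, adjusted p = 0.016) was lost without S1 (adjusted p = 0.0560) or S2 (0.0567).

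Genes of the NF-kB and inflammatory list were mostly lower. Of 31 measured, 22 were called lower and 4 higher, against 31.3% and 32.3% of expressed rows, with a median of -0.58. In this list 14 were at least 2-fold lower, against 4.36% of expressed rows. CXCL8, the neutrophil chemokine interleukin-8, was at 9.57, 9.59 and 9.46 log2 CPM in control cells and at 7.11, 7.01 and 6.79 in TLX+siTLX (-2.57 ± 0.10, limma adjusted p = 3.07e-07). IL6, a cytokine of inflammation, was at 8.83, 8.90 and 8.80 against 6.88, 6.89 and 6.61 (-2.05 ± 0.09, adjusted p = 4.66e-07), and in TLX+siCTL its mean was 6.30. For both, all TLX+siTLX libraries lay below all controls. The chemokines CCL20 and CXCL3 fell by 3.11 ± 0.24 and 3.07 ± 0.08. IL1B, another cytokine, fell by 0.58 ± 0.14 (adjusted p = 0.0112), a call lost without S1 (adjusted p = 0.0587) or S7 (0.0543). TLR4 was the largest rise of the list, and TNFAIP2 (0.68 ± 0.08) and the inhibitor NFKBIA (0.31 ± 0.06) also rose. The list medians were -1.14 in TLX+siCTL over CTL+siCTL (26 lower, 2 higher) and 0.14 in TLX+siTLX over TLX+siCTL (6 lower, 10 higher).

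Of 40 interferon-stimulated genes 23 were called lower and 9 higher (median -0.31). IFIT2, an antiviral RNA-binding protein gene, was at 9.34, 9.26 and 9.15 log2 CPM against 7.13, 7.04 and 6.76 (-2.27 ± 0.10, limma adjusted p = 5.21e-07). OASL was at 7.36, 7.40 and 7.35 against 5.58, 5.53 and 5.46 (-1.85 ± 0.05), and IFI44L fell by 2.09 ± 0.14. The groups did not overlap for these genes. The antiviral tetherin gene BST2 rose by 1.31 ± 0.06, SAMD9L by 1.35 ± 0.20 and the GTPase GBP1 by 0.85 ± 0.08, so the list was not lower as a whole. In TLX+siCTL over CTL+siCTL the same list had 30 lower and 3 higher (median -0.85), and in TLX+siTLX over TLX+siCTL 22 higher and 2 lower (median 0.36). Among 20 genes of RNA sensing and RNA interference, which an siRNA itself could engage, 3 were called higher and 8 lower (median -0.18). Of expressed rows 32.3% were higher and 31.3% lower. The sensors IFIH1 and DDX58 fell by 0.82 ± 0.06 and 0.71 ± 0.05 and the sensor TLR3 rose by 0.52 ± 0.10.

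Cholesterol genes had no member called higher. Of 25 measured, 21 were called lower, against 31.3% of expressed rows, with a median of -0.90. STARD4, a sterol carrier, was at 7.65, 7.64 and 7.59 log2 CPM in control cells and at 5.82, 5.67 and 5.25 in TLX+siTLX (-2.04 ± 0.12, limma adjusted p = 2.51e-06). FDPS, which makes farnesyl diphosphate, was at 9.29, 9.33 and 9.22 against 7.72, 7.61 and 7.18 (-1.78 ± 0.13, adjusted p = 1.04e-05). No TLX+siTLX library reached the control range for either gene, and S9 was the lowest for both. SREBF2, the pathway's main activator, had no call (-0.07, adjusted p = 0.252, limma). Medians for the list were -0.69 in TLX+siCTL over CTL+siCTL and -0.32 in TLX+siTLX over TLX+siCTL.

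Fatty acid and triglyceride genes were lower in 16 of 30 cases and higher in 3 (median -0.35), against 31.3% and 32.3% of expressed rows. PLIN2, the coat protein of lipid droplets, was at 10.36, 10.32 and 10.06 log2 CPM against 8.05, 8.11 and 8.13 (-2.15 ± 0.09, limma adjusted p = 5.21e-07), which put the groups wholly apart. The acyl-CoA synthetase ACSL3 fell by 1.53 ± 0.07 and the desaturase FADS1 by 1.37 ± 0.08. DGAT2, which makes triglycerides, rose by 2.56 ± 0.10 from 0.74, 0.53 and 0.66 to 3.08, 3.30 and 3.22.

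ATF4 is the stress factor of amino acid shortage and endoplasmic reticulum stress. Genes of the unfolded protein response and targets of ATF4 were lower in 27 of 32 cases and higher in 3 (median -0.86). The shares of expressed rows were 31.3% lower and 32.3% higher. DDIT3, the stress factor CHOP, was at 7.87, 7.87 and 7.62 log2 CPM in control cells and at 5.16, 5.17 and 5.23 in TLX+siTLX, 6.06-fold lower (-2.60 ± 0.07, limma adjusted p = 7.36e-08). HSPA5, the abundant chaperone BiP, was at 12.23, 12.21 and 12.03 against 10.83, 10.72 and 10.71, from 4559 to 1728 CPM (-1.40 ± 0.07, adjusted p = 9.65e-07). The groups were apart, and TLX+siCTL lay between for both. The pseudokinase TRIB3 fell by 2.01 ± 0.06 and the co-chaperone DNAJB9 by 1.67 ± 0.07. Asparagine synthetase, ASNS (0.61 ± 0.07), PYCR1 of proline synthesis (0.77 ± 0.04) and the chaperone CALR (0.25 ± 0.04) were the 3 that rose. Medians were -0.50 in TLX+siCTL over CTL+siCTL (25 lower) and -0.36 in TLX+siTLX over TLX+siCTL (23 lower).

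The NRF2 and antioxidant genes were lower in 15 of 27 cases and higher in 2 (median -0.34), against 31.3% and 32.3% of expressed rows. HMOX1, heme oxygenase, was at 6.40, 6.42 and 6.27 log2 CPM against 5.54, 5.67 and 5.57 (-0.77 ± 0.07, limma adjusted p = 3.36e-05), and NQO1 was at 8.68, 8.68 and 8.69 against 8.21, 8.10 and 8.24 (-0.50 ± 0.04). The groups were apart for both. Neither had a call between TLX+siCTL and CTL+siCTL (-0.19 and -0.02, adjusted p = 0.073 and 0.75, limma), while TLX+siTLX against TLX+siCTL gave -0.58 and -0.48. The cystine transporter SLC7A11 fell by 1.15 ± 0.12 and the mitochondrial dismutase SOD2 by 1.06 ± 0.10, and the cytosolic SOD1 rose by 0.57 ± 0.03. In the aryl hydrocarbon receptor pathway 6 of 9 measured genes were lower and 1 higher (median -0.72), with TIPARP at -1.24 ± 0.11, CYP1B1 at -0.93 ± 0.12 and ALDH3A1 at 1.03 ± 0.13.

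Of 29 immediate early and MAPK feedback genes, which respond within minutes to growth signals, 18 were lower and 4 higher (median -0.42). EGR1 was at 7.82, 7.83 and 7.55 log2 CPM in control cells and at 4.53, 4.62 and 4.44 in TLX+siTLX, 9.20-fold lower (-3.20 ± 0.14, limma adjusted p = 5.85e-07). FOS fell by 1.72 ± 0.10 and PHLDA1 by 1.55 ± 0.05. The AP-1 members FOSL2 and FOSL1 rose by 0.87 ± 0.05 and 0.37 ± 0.05, and MYC by 0.25 ± 0.05, so AP-1 genes went both ways. Among growth factors and receptors 13 of 28 were higher and 7 lower (median 0.18), against 32.3% and 31.3% of expressed rows. Beside EREG, the EGFR ligand AREG fell by 2.36 ± 0.09 and the ERBB3 ligand NRG1 by 1.55 ± 0.07, while the receptor ERBB3 rose by 1.23 ± 0.12 and the ephrin EFNB2 by 1.10 ± 0.04.

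Several lists held genes of both directions at shares near those of all expressed rows. Integrins and laminins had 7 higher and 7 lower of 18, as the laminin chain LAMB3 rose by 1.72 ± 0.07 and the collagen-binding integrin ITGA2 fell by 1.87 ± 0.06. Of 25 TGF-beta targets 6 were higher and 8 lower (median -0.05). Among these the matricellular genes CCN2 and CCN1 rose by 2.03 ± 0.05 and 1.72 ± 0.06 and FST, an activin antagonist, fell by 1.66 ± 0.10. Proteases and the plasminogen system had 8 higher and 7 lower of 19, with urokinase, PLAU, at 1.86 ± 0.08 and the collagenase MMP1 at -0.98 ± 0.08.

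Apoptosis regulators were higher in 6 and lower in 4 of 21 (8 lower without S7), against 32.3% and 31.3% of expressed rows. Among them the death ligand TNFSF10, also called TRAIL, was at 4.43, 4.47 and 4.70 log2 CPM against 6.54, 6.57 and 6.78 (2.10 ± 0.11, limma adjusted p = 1.38e-06). That group pair did not overlap, and TLX+siCTL was at a mean of 4.62. BBC3, a pro-apoptotic BH3 protein gene, fell by 0.91 ± 0.07. BCL2, which protects from apoptosis, rose by 0.84 ± 0.20 (adjusted p = 0.011). The call was lost without S7 (0.68, adjusted p = 0.0529) and with only the 6 compared libraries in the fit (0.84, adjusted p = 0.0586).

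Nuclear receptors and TLX corepressors had 8 higher and 11 lower of 30 (27 of them expressed rows), near the 32.3% and 31.3% of expressed rows. The counts were 7 lower without S1 and 5 higher with only the 6 libraries in the fit. The TLX-related receptors NR2F2 and NR2F1 differed in opposite directions. NR2F2 was at 6.04, 5.90 and 5.86 log2 CPM against 7.98, 8.22 and 7.98 (2.13 ± 0.08, limma adjusted p = 3.07e-07), and NR2F1 at 4.62, 4.49 and 4.46 against 2.98, 2.91 and 2.92 (-1.59 ± 0.10, adjusted p = 3.84e-06). HDAC2, a deacetylase that works with TLX, rose by 0.71 ± 0.04 and the retinoic acid receptor RARG fell by 1.28 ± 0.05. Markers of stem-like breast cancer cells had 3 higher and 7 lower of 13 (median -0.51), with CD24 falling by 2.56 ± 0.20 and SOX9 rising by 1.31 ± 0.05. CD24 has near-identical copies, so its value is uncertain. Among the MDA-MB-231 and mesenchymal breast markers 8 of 10 were higher and 1 lower (median 1.10), with caveolin, CAV1, 3.87-fold higher (1.95 ± 0.05) while annexin, ANXA1, fell by 0.30 ± 0.04. Luminal breast markers had 4 higher and 5 lower of 13, of which only 8 were expressed rows. Their summed level was 1610 to 1647 CPM in control cells and 1104 to 1215 CPM in TLX+siTLX. Their estrogen receptor gene ESR1 was near the floor in all 6 libraries (-2.84 to -1.78 log2 CPM). What these marker levels contribute to the other differences was not tested.

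No listed oxidative phosphorylation or ribosomal protein gene differed by 2-fold. Of 33 oxidative phosphorylation genes 16 were within 1.2-fold by their 95% interval, against 16.9% of expressed rows, a share not matched for abundance. Of the 33, 14 were called higher and 4 lower (median 0.06, range -0.56 to 0.63), against 32.3% and 31.3% of expressed rows. UQCRFS1, a complex III subunit, was called at -0.15 ± 0.05 (limma adjusted p = 0.0261) and lost the call without S1, S2, S7 or S8 (adjusted p = 0.0731 to 0.0810). Of 35 ribosomal protein genes 7 were within 1.2-fold by their 95% interval, and 20 were called higher and 1 lower, with a median of 0.20. RPL35 rose by 0.51 ± 0.04 and RPL37A fell by 0.47 ± 0.05. Ribosomal protein genes have many near-identical pseudogenes, so small differences among them are uncertain.

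**Figure D4:**
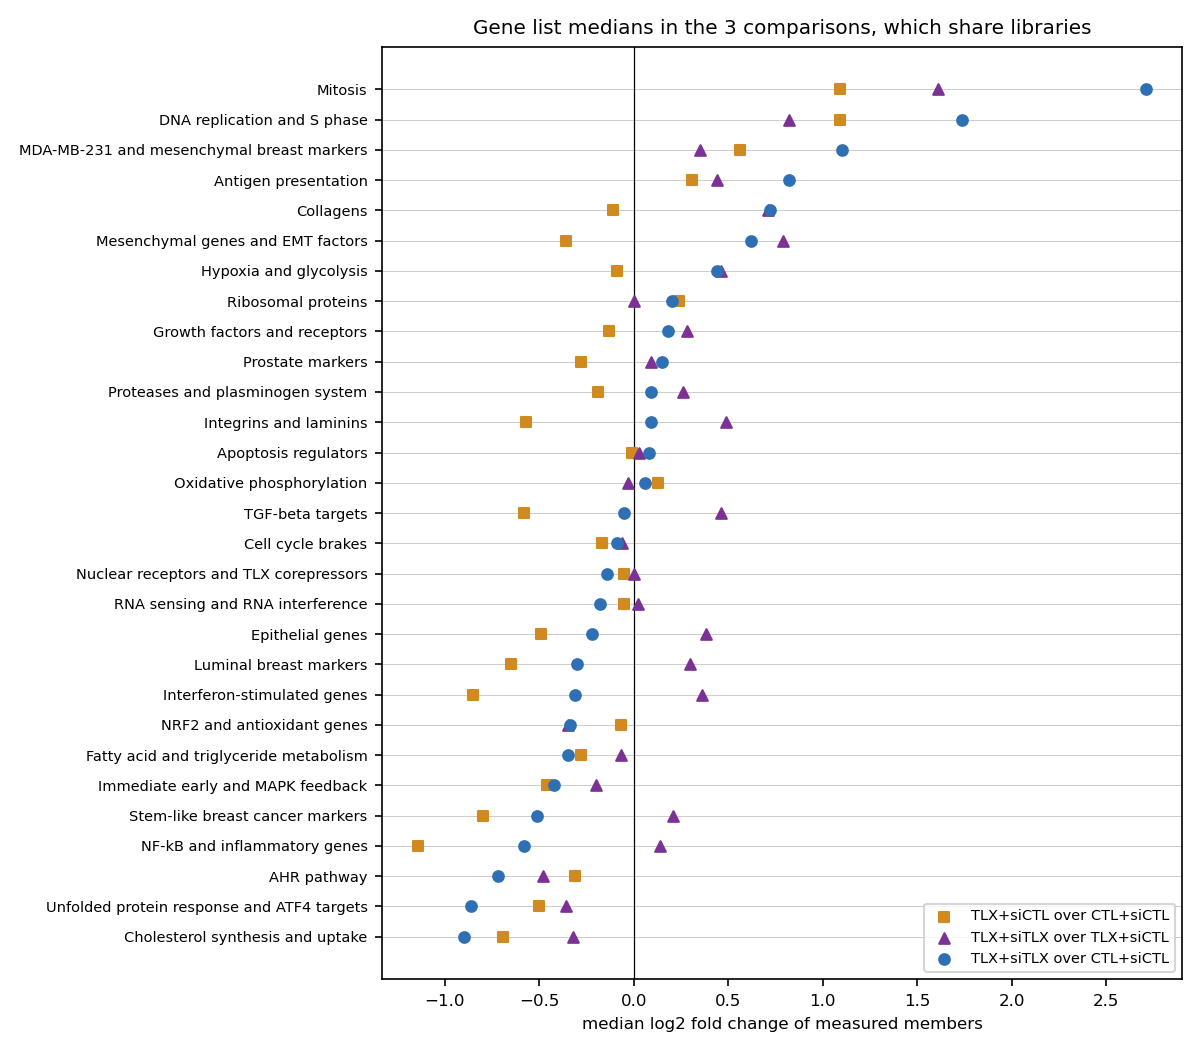
Median log2 fold change of the measured members of each gene list in the 3 comparisons, which share libraries. For mitosis the medians are 2.71 for TLX+siTLX over CTL+siCTL, 1.09 for TLX+siCTL over CTL+siCTL and 1.61 for TLX+siTLX over TLX+siCTL. For collagens, mesenchymal genes and hypoxia genes the TLX+siCTL median lies under 0 and that of TLX+siTLX over CTL+siCTL above 0.

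Read across the 3 groups, lists took different courses, and the comparisons share libraries, so these are levels side by side. In mitosis, S phase, cholesterol, unfolded protein response and aryl hydrocarbon receptor genes, the list median lay further from control cells in TLX+siTLX than in TLX+siCTL. NF-kB, interferon-stimulated, epithelial and TGF-beta genes had medians nearer to the control level in TLX+siTLX (-0.58, -0.31, -0.22 and -0.05) than in TLX+siCTL (-1.14, -0.85, -0.49 and -0.58). Collagen, mesenchymal and hypoxia genes had medians below the control level in TLX+siCTL (-0.11, -0.36 and -0.09) and above it in TLX+siTLX (0.72, 0.62 and 0.44). Other lists crossed it with smaller medians in TLX+siTLX, among them integrins and laminins (-0.57 and 0.09), growth factors (-0.13 and 0.18) and proteases (-0.19 and 0.09).

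The chromosome of a gene was looked at after its values were known. Genes of chromosomes X, 21, 7 and 6 had median log2 fold changes of 0.31, 0.30, 0.23 and 0.18 over control cells, and 59.7%, 57.1%, 50.7% and 47.8% of their expressed rows were called higher, against 32.3% of all expressed rows. Chromosome 12 had a median of -0.23, with 50.9% lower. Each chromosome's median level, taken per library as the deviation from the genes' mean over 9 libraries, was apart between the compared groups for these 5 chromosomes. It was also apart for others, among them chromosomes 1 and 9 with median log2 fold changes of -0.05 and 0.0, so being apart does not mark these 5. For X the median deviation was -0.22, -0.22 and -0.21 in CTL+siCTL and 0.10, 0.09 and 0.06 in TLX+siTLX. TLX+siCTL over CTL+siCTL gave like medians of 0.33 for X, 0.28 for 21, 0.27 for 7, 0.24 for 6 and -0.27 for 12. TLX+siTLX over TLX+siCTL gave -0.07 to 0.04 for the same chromosomes. The part of this pattern in the counts of the gene lists was not tested.

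**Figure D5:**
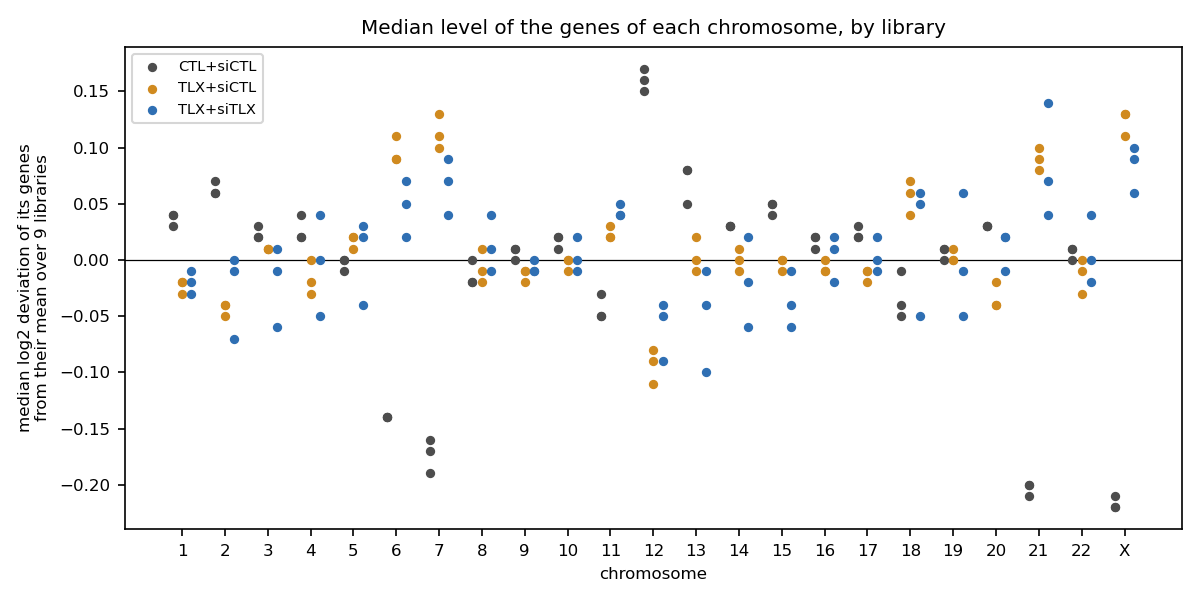
Median deviation of the genes of each chromosome from their mean over 9 libraries (log2), by library, for expressed rows. On X, 21, 7 and 6 the control libraries lie under 0 and both TLX groups above it, and on 12 the order is the opposite.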

How the data were processed

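RNA from 9 libraries was sequenced. The authors deposited log2 CPM values (log2 of counts relative to library size) for 27548 Ensembl genes. Tools named in the submitters' processing notes are edgeR, limma and kallisto 0.44.0, on GRCh38, without their roles. Signed fold changes, p-values and false discovery rates are in another table the authors deposited, and their test is not stated in the sources used here.

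Here limma 3.58.1 in R 4.3.3 was fitted to the log2 CPM values of all 9 libraries, with group means, moderation by an intensity trend and two-sided p-values adjusted by Benjamini-Hochberg over 27548 rows (threshold 0.05). Values after ± are standard errors of log2 fold changes. Deposited log2 values hold a prior count, so fold changes of rare genes are understated. Reads were rebuilt from the lowest value, -5.33 log2 CPM, as estimates and used only for the NR2E1 ratio, depth and the chi-square between libraries of a group. On simulated data the share of false calls was above the threshold, and small planted changes were often missed. Genes were placed with GENCODE 29 (24790 identifiers found).

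The 31 gene lists (712 genes), their motifs and members were chosen with earlier results of these data known. A list member counted as measured at a mean log2 CPM of at least -3. Named genes were, among called rows with a mean of at least 1, without overlap of the groups and with 1 row per symbol, the 12 largest rises and 12 largest falls, up to 3 of each direction per list and the 6 abundant genes (mean of at least 8) with the largest differences, plus key genes of the lists whatever their value. ECT2, CCNE1, SREBF2, KLK3 and ESR1, which are outside this rule, were chosen after their values were seen. Alternatives were the 6 libraries alone, a pseudocount of 1 CPM, equal medians, quantile normalization, a filter, no trend, library weights and leaving out each library. Some genes of the lists are not reported here.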

Additional observations from a re-analysis of the deposited data

How the results depend on the processing

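The counts of rows called higher (4869) and lower (4675) stayed within 1.5 times under all alternatives run, from 4251 to 5097 and from 4061 to 4926. The counts at 2-fold or more moved on the log2(CPM + 1) scale to 665 higher and 505 lower, and with only rows at a mean log2 CPM of at least 1 to 715 and 533, by construction with fewer rare genes. Leaving out 1 library at a time gave 1181 to 1232 and 979 to 1046. Rows held within 1.2-fold ranged from 1667 to 2353. NR2E1 stood at 0.18 on the log2(CPM + 1) scale (adjusted p = 0.387) and at 1.45 to 2.27 when 1 library was left out, and the filter removes it, so that setting gives no value. Higher calls made up 47.9% to 51.4% of all calls over the scalings and other settings.

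For 179 further genes taken by the naming rule, 2829 of 2860 results under alternatives kept direction and side of the threshold, 27 lost the call, 4 gained one and 0 reversed, all within 9 genes. Of 62 list counts, 52 never moved by more than 1.5 times. Prostate markers called lower went from 1 to 0 or 2. No paired analysis was possible because the table's columns carry running numbers, not the replicate numbers of the labels. NR2E1 in control cells rests on 4.80 rebuilt reads, which limits its ratio.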

Other observations

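Within chromosomes, stretches of 20 Mb (GRCh38) with at least 20 rows at a mean log2 CPM of at least 1 differed further, and were picked after their values were seen. On chromosome 1 the 41 such rows between 180000001 and 200000000, which hold PTGS2, had a median log2 fold change of -0.56 in TLX+siTLX over CTL+siCTL, -0.59 in TLX+siCTL over CTL+siCTL and -0.01 in TLX+siTLX over TLX+siCTL. The 3 further stretches to the end of that chromosome, from 200000001, had medians of -0.34, -0.41 and -0.38 over control cells. On chromosome 2 the stretch from 240000001 gave -0.49 (21 rows), and on chromosome 12 that from 20000001 to 40000000 gave -0.47 (47 rows). The highest medians were 0.48 on X from 60000001 to 80000000 (44 rows), 0.42 on X from 20000001 to 40000000 (23 rows) and 0.42 on chromosome 21 from 40000001 (42 rows). In TLX+siTLX over TLX+siCTL these 9 stretches had medians of -0.14 to 0.10.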
